A study of Mus musculus with 8 samples.

Results

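The genes described here encode the constant regions of the immunoglobulin light and heavy chains and the J chain. They were chosen by symbol: Igkc, Ighm, Ighd, Iglc1, Iglc2 and Igj. Of these 6 genes, 4 (Igkc, Ighm, Iglc2 and Igj) have a row in the table of 37979 genes, and no row carries the symbol Ighd or Iglc1, so an IgD share was not computed. RNA was sequenced from pericytes (PDGFRβ+ tdTomato− cells, 4 libraries) and smooth muscle cells (SMCs, PDGFRβ+ tdTomato+ cells, 4 libraries) of hindlimb muscle, with libraries numbered 1 to 4 in each group. All cells came from Ai14+/−;SM22α-Cre+ mice, perfused before dissection (the study as a whole used 18 mice of both sexes, aged 3 to 4 months), in which Cre under the SM22α promoter switches on tdTomato. The groups thus share one genotype and were separated by the sort. Each library held about 60000 cells combined from several sorts, and no source says which animals went into which library, so the spread between libraries may be in part technical. Live cells were taken as low in DAPI and negative for FITC, the dye on the antibodies to CD31 (endothelial cells) and CD45 (blood cells).

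Antibodies are built from paired heavy and light chains, each with a variable region that binds antigen and a constant region that sets the class. A B cell joins gene segments in its DNA to build the variable region, which is then spliced to a constant region in the RNA, and it makes either a kappa light chain (constant region Igkc) or a lambda light chain (Iglc genes). Naive B cells carry IgM (heavy constant gene Ighm), usually with IgD (Ighd), and class switching replaces it with IgG, IgA or IgE. The J chain, encoded by Igj, joins IgM and IgA units into polymers and is made mainly by antibody-secreting cells. Expression of all these chains is a mark of the B cell lineage.

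The genes lie on different chromosomes in the mouse genome (NCBI Build 37, GENCODE version M1 annotation). Igkc is a single exon of 323 bases on the plus strand (chr6:70676429-70676751). Ighm has 4 annotated exons of 1367 bases in all on the minus strand (chr12:114659078-114660941), and its single value per library does not tell secreted from membrane IgM. Igj has 4 exons on the minus strand (chr5:88949537-88956916). The first 60 coding bases of these genes in the annotation, shown to identify the measured region of each, are these:
Igkc, chr6:70676429-70676488, plus strand: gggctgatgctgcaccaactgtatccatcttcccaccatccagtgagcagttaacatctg
Ighm, chr12:114660882-114660941, minus strand: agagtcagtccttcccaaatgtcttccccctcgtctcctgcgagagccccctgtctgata
Igj, chr5:88956745-88956804, minus strand: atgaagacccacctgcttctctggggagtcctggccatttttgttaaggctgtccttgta

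The lambda constant gene Iglc2 has 2 exons on the minus strand (chr16:19198494-19200444), and its close relative Iglc3 lies on the same strand (chr16:19065327-19067266). Over 312 coding bases the genes differ at 11 bases (96.5% identical), and the longest identical run is 79 bases. No stretch of 150 bases, the read length, is shared by their exons, while 43 of the 557 stretches of 50 bases in Iglc2 (7.72%) also occur in Iglc3. Reads that cover only a shared stretch could be split between the rows, so the lambda values are less certain than the others. The coding bases 16 to 75, counted from the first annotated coding base, are shown because they hold 5 of the differences (in capitals):
Iglc2, chr16:19198869-19198928, minus strand: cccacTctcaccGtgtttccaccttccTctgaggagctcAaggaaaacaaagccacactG
Iglc3, chr16:19065698-19065757, minus strand: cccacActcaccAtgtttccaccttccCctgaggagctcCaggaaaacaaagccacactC

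Class-switched heavy chains were measured by the rows Ighg1, Ighg2c, Ighg3 and one named only Ighg. Their second exons, which encode the hinge between the arms and the stem of IgG, are shown because they set the subclasses apart, with the in-frame cysteine codons in capitals. The Ighg1 exon has 39 bases and 4 such codons, that of Ighg2c 63 bases and 3, that of Ighg3 48 bases and 1, and that of Ighg 66 bases and 4. Ighg2c and Ighg share 56 stretches of 50 bases, and no other pair of IgG rows shares a stretch of that length.
Ighg1, chr12:114568055-114568093, minus strand: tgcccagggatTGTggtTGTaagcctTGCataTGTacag
Ighg2c, chr12:114526474-114526536, minus strand: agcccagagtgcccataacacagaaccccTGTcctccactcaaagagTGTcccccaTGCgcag
Ighg3, chr12:114598740-114598787, minus strand: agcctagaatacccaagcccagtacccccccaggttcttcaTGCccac
Ighg, chr12:114545472-114545537, minus strand: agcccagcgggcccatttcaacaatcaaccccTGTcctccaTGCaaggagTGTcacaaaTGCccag

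All values are FPKM, fragments scaled to transcript length and to the mapped total of the library, which are not counts, so the number of fragments behind a value is unknown. FPKM summed to between 690247 and 1190435 in a pericyte library and between 656405 and 737839 in an SMC library, and relative depths ran from 0.839 to 1.07. For all 4 genes with a row the lowest pericyte library exceeded the highest SMC library, and all 4 were pericyte-enriched (log2 fold change above 2 and q value below 0.05 by limma). Of the 27414 genes tested, 3.24% were pericyte-enriched and 2.66% SMC-enriched, and 21.8% passed the q threshold in either direction. The libraries of the groups did not overlap for 12.1% of genes with pericytes higher and for 12.5% with SMCs higher. The median log2 fold change was 5.34 over the 4 genes and 0.02 over all genes tested. In bulk RNA, fewer cells of a type and less RNA per cell cannot be told apart.

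Igkc, the kappa light chain constant region, had the highest level. It reached 10737, 27602, 7411 and 20893 FPKM in pericyte libraries 1 to 4, and 179, 332, 183 and 401 FPKM in SMC libraries 1 to 4. The groups did not overlap, since the lowest pericyte library was 18.5 times the highest SMC library. Igkc had the highest FPKM of all genes in pericyte libraries 1, 2 and 4 and ranked 3 in pericyte library 3, whereas it ranked between 297 and 774 in the SMC libraries. Its share of all FPKM was 1.03% to 2.67% among pericyte libraries and 0.0242% to 0.0574% among SMC libraries. The means were 16661 ± 9278 FPKM in pericytes and 274 ± 111 FPKM in SMCs (SD, n = 4 each). On the log2(FPKM + 1) scale, which understates the change of low genes, the fold change was 5.83 (SE 0.48, 95% interval 4.70 to 6.96) with a q value of 2.3e-04 by limma.

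Ighm, the constant region of the IgM heavy chain, was the steadiest of the 4 genes among pericyte libraries. Its levels there were 1344, 1108, 880 and 1354 FPKM, and those in SMCs were 58.0, 36.2, 16.1 and 68.0 FPKM. Within pericytes the highest library was 1.54 times the lowest, against 3.72 times for Igkc, 2.74 times for Iglc2 and 7.20 times for Igj. The means were 1172 ± 225 FPKM and 44.6 ± 23.2 FPKM (SD, n = 4 each), and the log2 fold change was 4.85 (SE 0.43, q value 3.2e-04 by limma). The FPKM of Igkc was 7.99 to 24.9 times that of Ighm in pericytes and 3.08 to 11.3 times in SMCs, so these ratios overlapped. FPKM are per length, but the Igkc model of 323 bases is short beside paired reads of 150 bases, and how the authors' program treated short models is not given in the sources used here.

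Iglc2, the lambda constant region among the listed genes, stood at 322, 655, 883 and 599 FPKM in pericytes. In SMCs it stood at 104, 5.45, 1.47 and 3.08 FPKM. SMC library 1 was thus far above the other SMC libraries, and the highest SMC library was 70.8 times the lowest. Every pericyte library was still higher, with the lowest at 3.10 times SMC library 1. The means were 615 ± 230 FPKM and 28.5 ± 50.4 FPKM (SD, n = 4 each), and the log2 fold change was 5.99 (SE 1.14, 95% interval 3.32 to 8.67) with a q value of 0.0088 by limma. Without SMC library 1 the log2 fold change was 7.17 (limma q value 5.0e-04).

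Igj, the J chain, had the lowest mean level of the 4 genes in pericytes and the widest spread there, whereas in SMC libraries 2, 3 and 4 Iglc2 was lower. It reached 68.4, 339, 107 and 492 FPKM in pericytes and 3.10, 8.86, 4.90 and 21.5 FPKM in SMCs. In both groups libraries 2 and 4 were higher than libraries 1 and 3. The means were 252 ± 200 FPKM and 9.59 ± 8.30 FPKM (SD, n = 4 each). The log2 fold change was 4.46 (SE 0.78, 95% interval 2.63 to 6.29) with a q value of 0.0062 by limma.

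**Figure D1:**
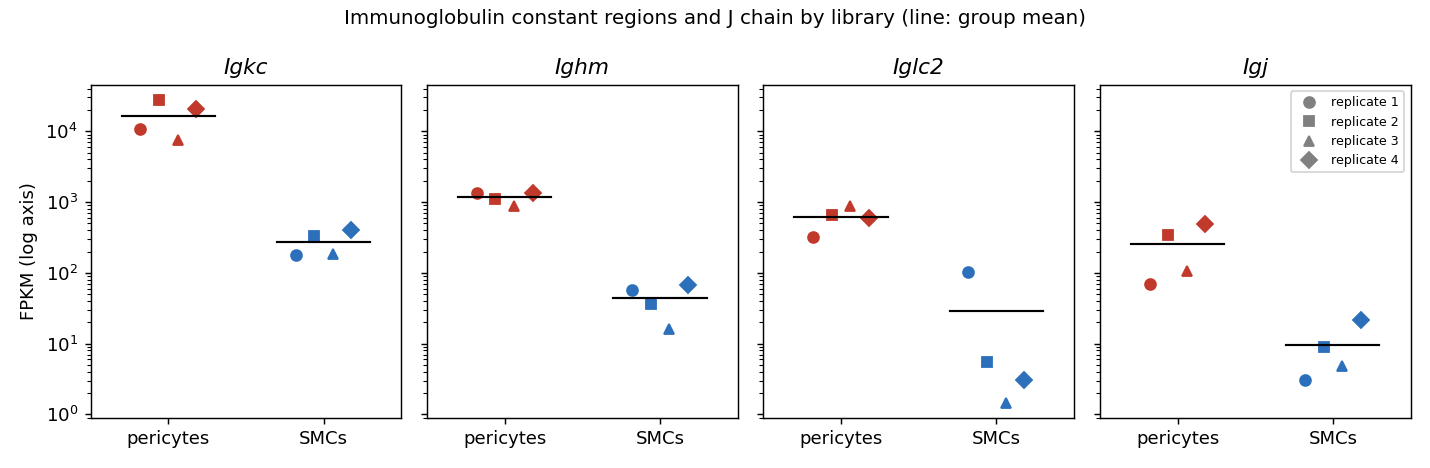
FPKM (log axis) of Igkc, Ighm, Iglc2 and Igj in each of the 4 pericyte and 4 SMC libraries, with the marker shape giving the replicate number and a line at the group mean. Every pericyte library lies above every SMC library for all 4 genes, the narrowest gap being that of Iglc2, for which SMC library 1 stands at 104 FPKM.

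Light chain usage was compared as the kappa share, Igkc over the sum of Igkc, Iglc2 and Iglc3. The share was 94.8%, 96.2%, 87.6% and 88.7% in pericytes and 60.04%, 97.1%, 97.8% and 95.4% in SMCs. As a ratio of kappa to lambda, pericytes ran from 7.07 to 25.4 and SMCs from 1.503 to 45.4. The groups overlapped, and the pericyte mean of 91.8% ± 4.31 and the SMC mean of 87.6% ± 18.4 (SD, n = 4 each) did not differ beyond the spread (difference 4.24 percentage points, two-sided exact permutation test, p = 0.971). The direction rested on SMC library 1, since without it the pericyte mean was lower by 4.95 percentage points (exact p = 0.143). By the measured constant rows, kappa was thus the larger light chain fraction in all 8 libraries, by the least in SMC library 1. No row carries the symbol Iglc1, so lambda is counted here without that gene. The Igkc model of 323 bases is also shorter than those of Iglc2 (606 bases) and Iglc3 (581 bases). The treatment of short models is not given, so the share is not a direct measure of light chain usage.

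The companion gene Iglc3 was pericyte-enriched as well. It had 262, 430, 165 and 2062 FPKM in pericytes and 15.0, 4.37, 2.56 and 16.3 FPKM in SMCs (log2 fold change 5.70, SE 0.89, limma q value 0.0037). Pericyte library 4 was the high one for Iglc3, whereas library 3 was the highest for Iglc2. Iglc2 made up 55.2%, 60.4%, 84.3% and 22.5% of the lambda constant FPKM in pericytes and 87.4%, 55.5%, 36.5% and 15.9% in SMCs. Which lambda gene prevailed therefore varied between libraries of both groups.

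Lambda variable segments were looked up after seeing the table, because they lie beside these constant genes. In the direction of transcription the annotated order is Iglv2, Iglv3, Iglc2, Iglv1, Iglc3. Iglv2 stood at 71.1, 160, 1421 and 28.3 FPKM in pericytes and at 170, 1.81, 0 and 249 FPKM in SMCs, so the groups overlapped (log2 fold change 2.99, limma q value 0.43, and from 1.59 without SMC library 3 to 4.24 without SMC library 4). Pericyte library 3 and SMC library 1, the libraries highest in Iglc2 within their groups, were also high in Iglv2. SMC library 4 had 249 FPKM of Iglv2 with only 3.08 FPKM of Iglc2 and 16.3 FPKM of Iglc3. Iglv1 ran at 288, 649, 128 and 1590 FPKM in pericytes and at 8.64, 4.23, 9.46 and 20.8 FPKM in SMCs (log2 fold change 5.42, limma q value 0.0031). Iglv3 had 59.8, 98.1, 24.7 and 663 FPKM in pericytes and at most 0.673 FPKM in an SMC library (log2 fold change 6.15, limma q value 0.0029). Its log2 fold change was 5.25 without pericyte library 4 and 7.62 with a pseudocount of 0.1. Within pericytes Iglv1 and Iglv3 followed the same order of libraries as Iglc3, with library 4 highest and library 3 lowest.

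**Figure D2:**
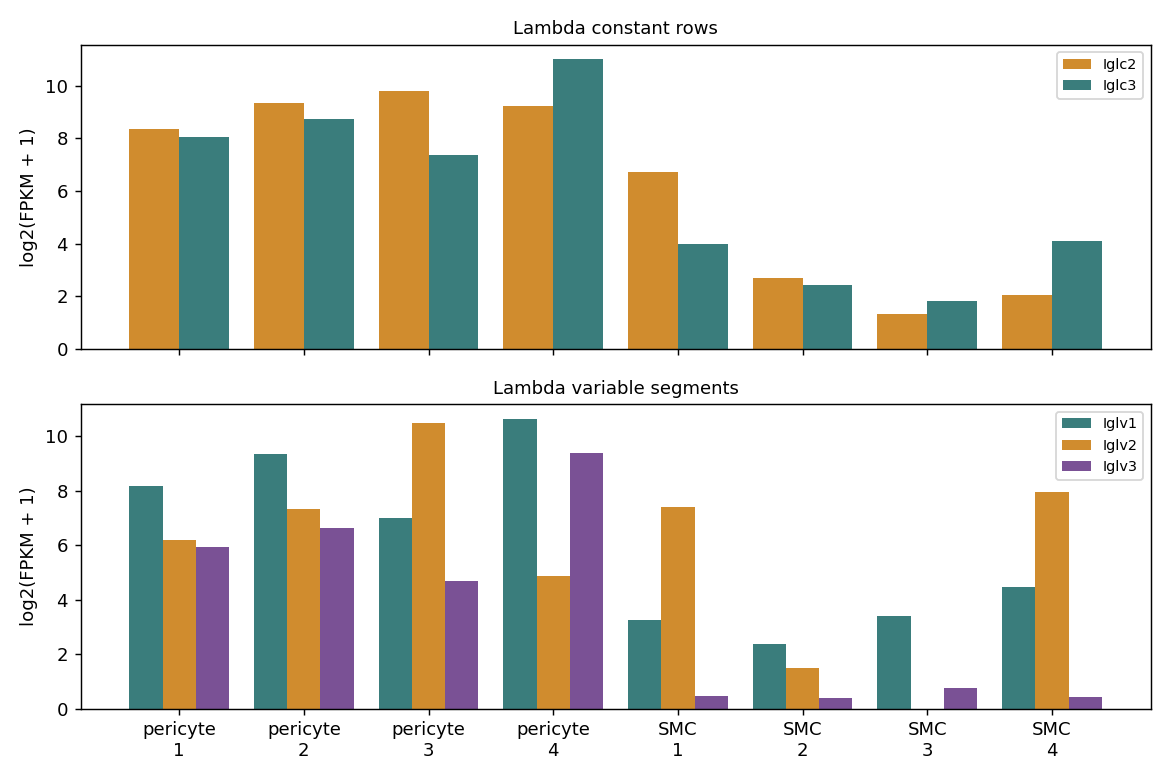
log2(FPKM + 1) of the lambda constant rows Iglc2 and Iglc3 (upper bars) and of the lambda variable segments Iglv1, Iglv2 and Iglv3 (lower bars) in each library. Iglc2 and Iglv2 are high together in pericyte library 3 and SMC library 1, Iglc3, Iglv1 and Iglv3 are highest in pericyte library 4, and SMC library 4 has Iglv2 at 249 FPKM with little of either constant row.

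Kappa variable segments followed Igkc closely in size. The summed FPKM of the Igkv rows was 0.664 to 0.802 of the Igkc value in pericytes and 0.622 to 0.818 in SMCs. Judged by variable segments in place of constant regions, the kappa share was 95.4%, 95.7%, 78.7% and 85.9% in pericytes and 44.0%, 97.3%, 93.7% and 48.0% in SMCs, so lambda was the larger fraction in SMC libraries 1 and 4. The difference between groups by this measure was 18.2 percentage points (exact p = 0.343). The low values in SMC libraries 1 and 4 are those with 170 and 249 FPKM of Iglv2. Heavy chain variable segments summed to 3238, 4008, 2818 and 9781 FPKM in pericytes and to 100, 55.6, 54.5 and 177 FPKM in SMCs, with library 4 highest in both groups.

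Heavy chain class was compared as the IgM share, Ighm over the summed FPKM of Ighm and the Ighg1, Ighg2c, Ighg3, Ighg and Ighe rows. This measure was taken in place of an IgD share after it was seen that the table has no row named Ighd, and no row carries the symbol Igha, Ighg2a or Ighg2b either, so it is a share of the measured heavy chain rows only. The row named Ighg lies between Ighg1 and Ighg2c on chromosome 12, the place that Ighg2b holds between them in the RefSeq annotation of a later build, so IgG2b may be measured under that symbol. The IgM share was 96.2%, 80.8%, 88.8% and 39.6% in pericytes and 99.1%, 97.5%, 97.3% and 97.6% in SMCs. IgM thus made up most of the heavy chain FPKM in every library but pericyte library 4. The lowest SMC share lay above the highest pericyte share, with means of 97.9% ± 0.82 and 76.4% ± 25.3 (SD, n = 4 each). The difference of −21.5 percentage points gave p = 0.0286, the smallest that a two-sided exact permutation test of 4 against 4 allows, and p = 0.0857 adjusted over the 3 ratios tested. Without pericyte library 4 it was −9.25 percentage points, and without any 1 of the SMC libraries p was 0.171. With 1 FPKM added to each row it was −8.22 percentage points (exact p = 0.743), and the 4 IgG rows of an SMC library summed to only 0.448 to 1.66 FPKM.

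The IgG rows varied far more between pericyte libraries than Ighm did. Together they summed to 52.4, 262, 111 and 2068 FPKM in pericytes, which was 3.75%, 19.1%, 11.2% and 60.4% of the heavy chain FPKM. Ighg1 alone ran from 3.07 FPKM in pericyte library 1 to 1094 FPKM in library 4, with 95.2 FPKM in library 2 and 108 FPKM in library 3, and was at most 0.165 FPKM in an SMC library and listed at 0 in SMC libraries 2 and 4. Ighg2c was at 42.4, 142, 2.05 and 484 FPKM in pericytes and at most 0.472 FPKM in SMCs. Library 3, which had more Ighg1 than library 1, had the least Ighg2c of the 4. Of the 5 other constant genes listed and measured (Ighg1, Ighg2c, Ighg3, Ighe and Iglc3), 3 were pericyte-enriched, and 2 were so without pericyte library 4. Of its 3 IgG rows, Ighg1 and Ighg2c were called and Ighg3 was not, with log2 fold changes of 6.27 (SE 1.51, q value 0.023) for Ighg1 and 5.56 (SE 1.43, q value 0.030) for Ighg2c by limma. Ighg1 missed the q threshold without pericyte library 2 or 3 or without any 1 of the SMC libraries (q values of 0.0561 to 0.0673). Ighg2c missed it without any 1 library other than pericyte library 3 (q values of 0.0543 to 0.0799) and with a block for the replicate number (0.0504). Without 1 library the log2 fold change ran from 5.03 to 7.72 for Ighg1 and from 4.51 to 6.95 for Ighg2c. With a pseudocount of 0.1 it was 8.97 for Ighg1 and 7.705 for Ighg2c.

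Ighg3 was found almost only in pericyte library 4. It stood there at 372 FPKM, against 0.326 to 1.32 FPKM in the other pericyte libraries and at most 0.104 FPKM in SMCs (log2 fold change 2.57, limma q value 0.41). The row named Ighg had 6.62, 23.9, 0.848 and 118 FPKM in pericytes and 0.324, 0.398, 0.105 and 1.52 FPKM in SMCs (log2 fold change 3.25, limma q value 0.10), and its groups overlapped. Ighe, the constant gene of IgE, did not exceed 0.104 FPKM in any library. Pericyte library 4 was the highest of all 8 libraries for each of these IgG rows, while its Ighm level of 1354 FPKM was close to the 1344 FPKM of library 1.

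**Figure D3:**
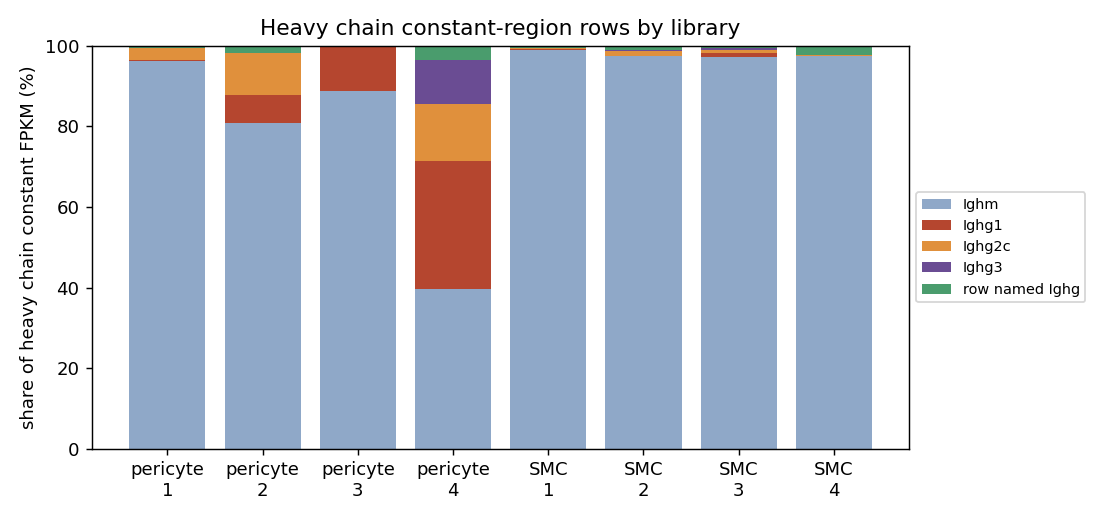
Share of the heavy chain constant-region FPKM (percent, stacked) taken by Ighm, Ighg1, Ighg2c, Ighg3 and the row named Ighg in each library. Ighm takes 97.3% to 99.1% in the SMC libraries and 80.8% to 96.2% in pericyte libraries 1 to 3, and in pericyte library 4 it takes 39.6%, with 32.0% for Ighg1, 14.2% for Ighg2c and 10.9% for Ighg3.

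The J chain was set against the chains it is assembled with. Igj amounted to 0.637%, 1.23%, 1.45% and 2.36% of Igkc in pericytes and to 1.73%, 2.67%, 2.68% and 5.36% in SMCs. The ratio was lower in pericytes by 1.16 on the log2 scale, but the groups overlapped and the difference did not pass the test (p = 0.0571 by the exact permutation test, 0.0857 after adjustment over the 3 ratios). Against Ighm it amounted to 5.09%, 30.6%, 12.2% and 36.4% in pericytes and to 5.34%, 24.5%, 30.3% and 31.6% in SMCs. Library 1 was the lowest by this ratio in both groups.

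Cd79a, which encodes a signalling partner of the B cell receptor on the cell surface, is held in the membrane and is not part of the secreted antibody. It had 671, 1145, 478 and 415 FPKM in pericytes and 15.5, 13.7, 4.08 and 4.30 FPKM in SMCs. Igkc was 16.0, 24.1, 15.5 and 50.3 times Cd79a in pericytes and 11.5, 24.2, 44.8 and 93.3 times in SMCs. Ighm was 2.00, 0.968, 1.84 and 3.26 times Cd79a in pericytes and 3.74, 2.64, 3.96 and 15.8 times in SMCs. For Igj the ratio was 0.102, 0.296, 0.224 and 1.19 in pericytes and 0.199, 0.646, 1.201 and 5.004 in SMCs. Library 4 had the highest of all 3 ratios in each group, and the groups overlapped for all 3. Between libraries of the same number, the Ighm and Igj ratios were always lower in pericytes. The Igkc ratio was lower in pericytes for numbers 2, 3 and 4 and higher for number 1. These ratios are a description and were not tested.

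**Figure D4:**
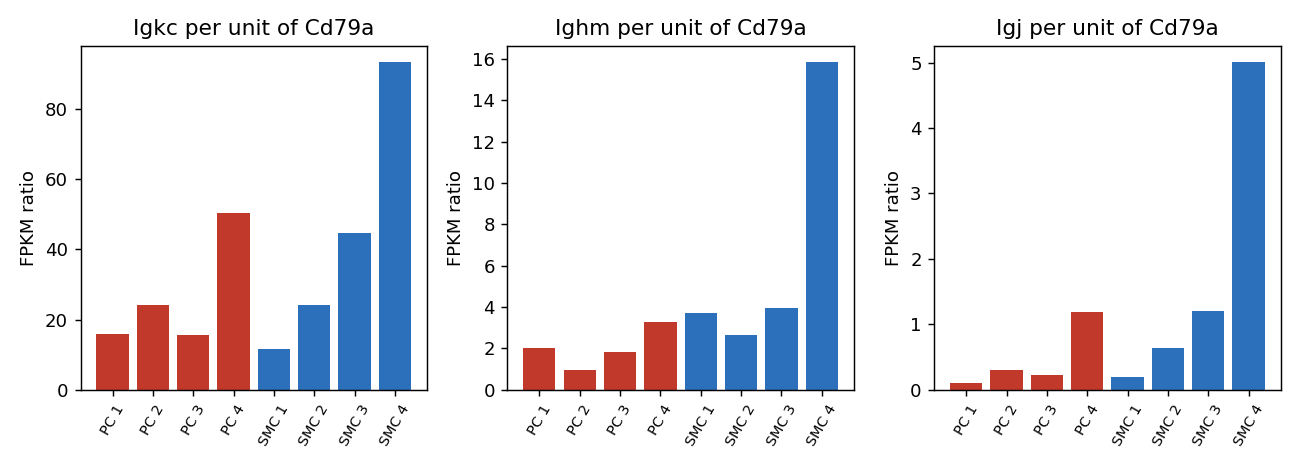
Ratio of the FPKM of Igkc, Ighm and Igj to that of Cd79a in each pericyte (PC) and SMC library, with bars from 0. The bars of library 4 are the tallest of their group for all 3 genes, and those of SMC library 4 are the tallest of all, at 93.3 for Igkc, 15.8 for Ighm and 5.004 for Igj.

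Other genes of the B cell lineage were taken from lists chosen with earlier results of these data known. Of 8 genes of the B cell receptor complex and the B cell surface, all 8 were pericyte-enriched (median log2 fold change 5.28, against 0.02 over all genes). Cd79b, the partner of Cd79a, had 156 to 549 FPKM in pericytes and 3.24 to 10.8 FPKM in SMCs. Faim3, also called Fcmr, encodes a receptor for IgM and had 180 to 317 FPKM in pericytes and 0.970 to 3.66 FPKM in SMCs (log2 fold change 6.18, limma q value 4.7e-05). Cd72, an inhibitory coreceptor, had 114 to 172 FPKM in pericytes and 5.71 to 9.54 FPKM in SMCs.

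Of 10 genes of B cell signalling and transcription, 7 were pericyte-enriched and 0 SMC-enriched (median log2 fold change 3.08). Bank1, a scaffold of B cell receptor signalling, had a log2 fold change of 4.60 (limma q value 3.8e-05), and Blnk, a linker protein of the same pathway, one of 2.83 (q value 4.9e-04). The other 3 were Lyn and Pax5, whose log2 fold changes of 1.61 and 1.41 passed the q threshold but not the fold threshold, and Ebf1, at 49.0 ± 12.2 FPKM in pericytes and 58.0 ± 24.1 FPKM in SMCs (SD, n = 4 each; q value 0.76). Pax5, a factor that defines the B cell lineage, had a mean of only 1.78 FPKM in pericytes and 0.0424 FPKM in SMCs. Ebf1, an early B cell factor, is also used outside the B lineage, and its groups overlapped.

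Of 7 genes of B cell precursors, 4 were pericyte-enriched and 0 SMC-enriched (median log2 fold change 3.14), and 6 were higher in pericytes at the q threshold alone. Igll1 and Vpreb1, which form the surrogate light chain of pre-B cells, had log2 fold changes of 4.04 (limma q value 0.047) and 3.14 (q value 0.025). Igll1 had 149, 315, 18.2 and 46.6 FPKM in pericytes and 12.8, 13.5, 0.0887 and 1.73 FPKM in SMCs, so that libraries 1 and 2 were above libraries 3 and 4 in both groups. Vpreb3 (4.13, q value 0.015) and Dntt (3.48, q value 1.7e-04), the terminal transferase that adds bases at heavy chain joints, completed the 4. Igll1 missed the q threshold without any 1 library other than pericyte library 3 (q values of 0.0595 to 0.134), Vpreb1 without pericyte library 1 or 2 or SMC library 3 or 4 (0.056 to 0.081), and Vpreb3 without pericyte library 1 (0.0549). Igll1 was also at the threshold or beyond it with TPM (q value 0.05) and quantile scaling (0.054). Short of the fold threshold were Vpreb2, a relative of Vpreb1 (1.84, q value 0.044), and the recombinase gene Rag1, with at most 0.578 FPKM in a library (0.36, q value 0.027), and both lost the q threshold without some single libraries (Vpreb2 without pericyte library 1 or 2 or any SMC library, 0.0580 to 0.128; Rag1 without pericyte library 4 or SMC library 2, 3 or 4, 0.0630 to 0.0715, and with TPM scaling, 0.0700). Vpreb2 was pericyte-enriched with a pseudocount of 0.1 (log2 fold change 3.74, limma q value 0.019). It was so too without pericyte library 3 (2.16, q value 0.038) or pericyte library 4 (2.12, q value 0.042). Rag2, the other recombinase gene, had a mean of 0.806 FPKM in pericytes, and its groups overlapped (q value 0.17).

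Of 3 genes of the germinal centre, 0 were enriched in either group by limma with the fold threshold, and 2 had an unadjusted p below 0.05. Over all genes tested, 3.24% were pericyte-enriched and 2.66% SMC-enriched, so 0 of 3 does not set these genes apart from the rest. The median log2 fold change of 0.04 was that of Mybl1, which had at most 0.491 FPKM in a library. At the q threshold alone, Bcl6, a repressor used by germinal centre B cells, was higher in pericytes (log2 fold change 1.12, q value 0.018), but not with TPM scaling (q value 0.12) or without pericyte library 4 or SMC library 1 or 2 (0.0514 to 0.0556), and S1pr2 was higher in SMCs (−1.45, q value 9.8e-04).

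Of 11 measured plasma cell genes, 2 were pericyte-enriched and 1 SMC-enriched (median log2 fold change 0.03). At the q threshold alone, 4 were higher in pericytes and 2 in SMCs, and the 4 include Edem1 (log2 fold change 1.52, limma q value 0.026) and Derl3 (1.18, q value 0.026). Edem1 was above 0.05 with TPM scaling (0.0752) and without any 1 library other than pericyte library 1 or 2 (0.0530 to 0.0736), and Derl3 without any 1 library other than pericyte library 1 or 3 (0.0544 to 0.0731). With a pseudocount of 0.1 Derl3 was pericyte-enriched (log2 fold change 2.07, limma q value 0.012). The row 2010001M09Rik, an older symbol of Mzb1, encodes a chaperone of antibody assembly and had 66.7, 156, 41.5 and 79.3 FPKM in pericytes and 2.46, 3.30, 0.183 and 2.70 FPKM in SMCs (log2 fold change 4.77, limma q value 8.1e-04). Irf4, a transcription factor of activated B cells and plasma cells, had a log2 fold change of 3.05 (q value 5.5e-05). Fkbp11, a folding enzyme of secretory cells, was SMC-enriched (−2.03, q value 0.038), but its groups overlapped, and it was not called without pericyte library 4. Xbp1, which drives the secretory programme of plasma cells and of many other cells, was higher in SMCs at 295 ± 50.5 FPKM than in pericytes at 194 ± 27.2 FPKM (SD, n = 4 each; q value 0.030), short of the fold threshold. Its q value was above 0.05 with a pseudocount of 0.1 (0.11), with the intensity trend (0.059) and without pericyte library 1, 3 or 4 or SMC library 1 or 3 (0.0536 to 0.0819). Tnfrsf17, a receptor of plasma cells chosen after its values were seen, had 0.149, 3.41, 1.36 and 3.86 FPKM in pericytes, the same order of libraries as Igj. In SMCs it had 0.147, 0.268, 0.495 and 0.821 FPKM, an order that differed from that of Igj (limma q value 0.20).

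Of 9 receptors and transporters of immunoglobulins, 1 was pericyte-enriched, 1 was SMC-enriched and 7 were not called (median log2 fold change 0.01). At the q threshold alone, 3 were higher in pericytes and 2 in SMCs. The first was Fcrl1, a B cell surface receptor of the Fc receptor-like family (log2 fold change 3.97, limma q value 1.2e-04). The other was Fcgrt, the receptor that carries IgG across cells and protects it from breakdown, at 343 to 500 FPKM in SMCs and 46.3 to 120 FPKM in pericytes (−2.27, q value 0.0015), and without pericyte library 3 its fold change fell just short of the threshold. Fcer1g, the signalling chain of several Fc receptors, and Fcgr2b, an inhibitory IgG receptor, were higher in pericytes at the q threshold alone (1.24, q value 0.013 and 1.19, q value 0.021), Fcgr2b not without pericyte library 1 or 4 or SMC library 2 or 3 (q values of 0.0523 to 0.0631), Fcgr1, an activating IgG receptor, was higher in SMCs at that threshold (−0.92, q value 0.021) but not without any 1 library other than pericyte library 3 or SMC library 1 (0.0515 to 0.0653), and Fcgr3 was at −0.77 (q value 0.11), but at −1.001 with TPM scaling (q value 0.0062) and at −1.06 without pericyte library 2 (q value 0.0029).

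**Figure D5:**
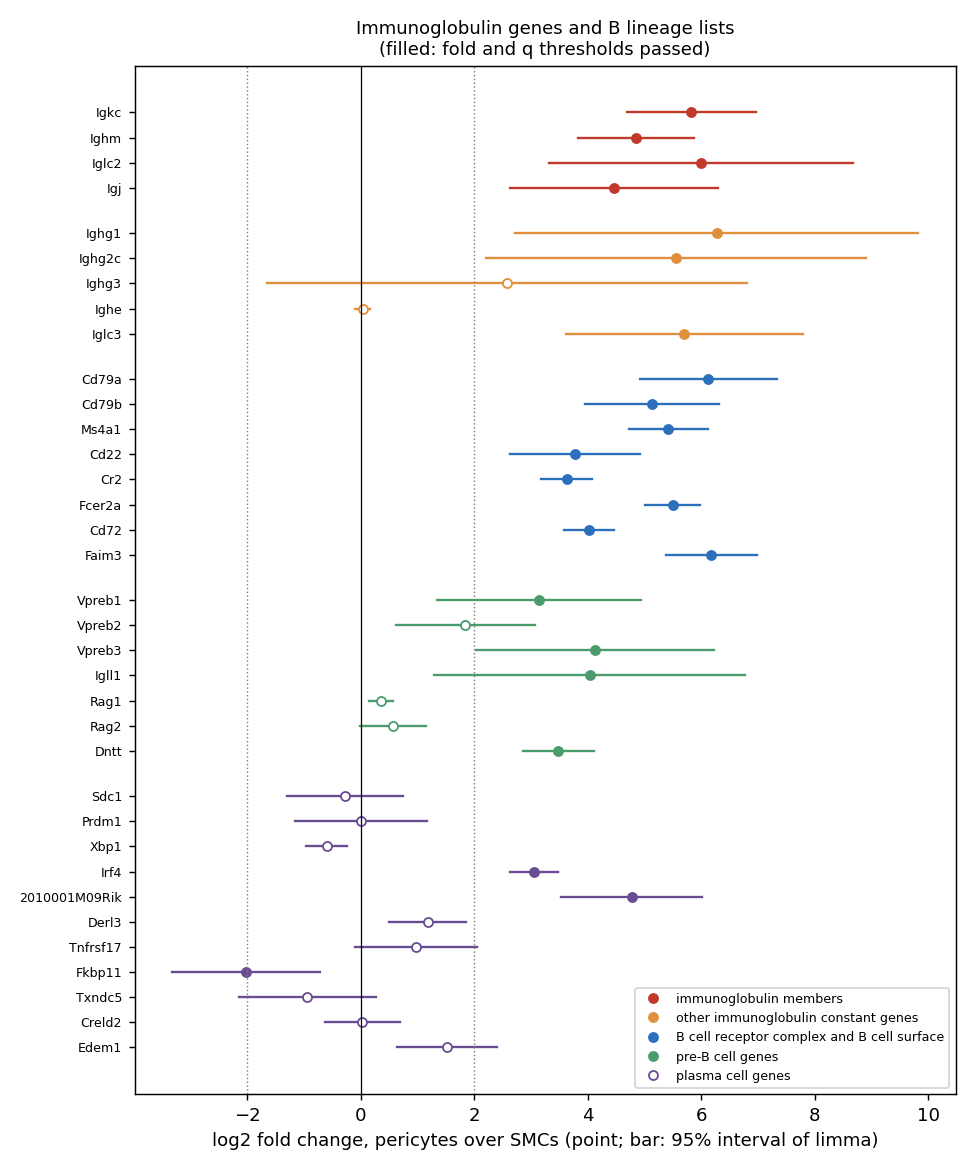
Log2 fold change of pericytes over SMCs on the log2(FPKM + 1) scale for the immunoglobulin genes and for the lists of other constant genes, B cell surface, pre-B cell and plasma cell genes, with the 95% interval of limma as a bar and dotted lines at −2 and 2. Filled points passed both thresholds: 4 of 4 immunoglobulin genes and 8 of 8 B cell surface genes lie to the right, whereas the 11 plasma cell genes lie on both sides of 0.

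Ptprc and most markers of B cells and T cells were higher in pericytes along with these genes. In the main fit, none of 6 mural markers and none of the 5 plasma cell markers in the marker list (Sdc1, Prdm1, Xbp1, Tnfrsf17 and Derl3) was pericyte-enriched. Over all genes tested, 3.24% were pericyte-enriched and 2.66% SMC-enriched. A count of 0 in marker lists as short as those here is near these shares and says little about a cell type. With a pseudocount of 0.1 Derl3 was pericyte-enriched (log2 fold change 2.07, limma q value 0.012). The plasma cell genes 2010001M09Rik and Irf4, which were pericyte-enriched in the main fit, are not in that marker list. Ptprc, which encodes CD45, the antigen gated out, had 80.6 to 230 FPKM in pericytes and 4.34 to 11.9 FPKM in SMCs (log2 fold change 4.24, limma q value 4.0e-04). Of 4 B cell markers (Ms4a1, Cd79a, Cd79b and Pax5), 3 were pericyte-enriched, and their summed level was 656 to 1839.8 FPKM in pericytes and 8.22 to 27.0 FPKM in SMCs. None of these 4 was at 0 in a pericyte library, and Pax5 was listed at 0 in SMC library 4. Of 5 T cell markers, 4 were pericyte-enriched, and their sum was 766 to 1391 FPKM against 10.9 to 38.9 FPKM, while Cd4 was not called (limma q value 0.075, groups overlapping). Of 4 macrophage markers 0 were called by limma (1 had an unadjusted p below 0.05, Emr1, which was higher in SMCs at the q threshold), and of 3 neutrophil markers 0 were called and 0 had such a p. Of 5 plasma cell markers, 0 were called in the main fit by limma with the fold threshold (2 had an unadjusted p below 0.05, and both also passed the q threshold, Derl3 higher in pericytes and Xbp1 in SMCs). The sum of the 5, most of it Xbp1, was 181 to 257 FPKM against 270 to 430 FPKM. Of 6 pericyte and mural markers, 0 were called by limma (4 had an unadjusted p below 0.05, and 1, Rgs5, was higher in SMCs at the q threshold), with a median log2 fold change of −1.35 and sums of 23.0 to 65.6 FPKM in pericytes and 59.2 to 246 FPKM in SMCs. The label of the pericyte libraries is therefore used here as the name of the gate. Of 3 fibroblast markers, Dcn was pericyte-enriched (log2 fold change 9.62), with 509 to 1165 FPKM in pericytes, and was listed at 0 in all 4 SMC libraries. Pdgfra (−3.60) and Col1a1 (−3.48) were SMC-enriched by limma, with 36.1 to 46.8 FPKM and 525 to 1702 FPKM in SMCs. Whether the values of 0 for Dcn reflect expression or the quantification was not tested, so its fold change is uncertain. Of 4 endothelial markers, 1 was SMC-enriched, Pecam1 (−2.06, q value 0.0087), which encodes CD31, also gated out. Of 5 gland markers, 1 was pericyte-enriched, Sbpl (6.58, q value 0.048), with 5537 FPKM in pericyte library 3, and 0 were without pericyte library 4. Sbpl too was listed at 0 in all 4 SMC libraries, whereas Sbp had 192 FPKM in SMC library 3. None of 4 smooth muscle and 3 skeletal muscle fibre markers was called. The part of other cell types in the immunoglobulin values was not tested.

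Genes with a profile like those of the immunoglobulin genes were found by Pearson's r of log2(FPKM + 1) over the 8 libraries, among genes averaging 1 FPKM or more and leaving out immunoglobulin variable segments. The 5 nearest to Igkc were Cox6a2 (r = 0.997), Cxcr6 (0.997), Vrk1 (0.994), Slc16a6 (0.992) and Klra4 (0.992). Cxcr6, a chemokine receptor of T and NK cells, had 127, 308, 104 and 192 FPKM in pericytes, in the same order of libraries as Igkc. For Igj the nearest were Uchl5 (r = 0.987), Ctss (0.979), Trim5 (0.973), Fbl (0.972) and Dnajb6 (0.971). Ctss, a lysosomal protease, had 286, 391, 335 and 401 FPKM in pericytes, also in the same order of libraries as Igj. The 8 points fall into the 2 groups, and the difference between groups sets most of each r, which is given as a description. The genes were picked for likeness in these same libraries, so a shared order within pericytes is in part built in. Cox6a2 and Klra4 did not follow the pericyte order of Igkc, nor Dnajb6 that of Igj.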

How the data were processed

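RNA of 4 pericyte and 4 SMC libraries was reverse transcribed and amplified (SMART-Seq, ultra-low input) and sequenced with paired reads of 150 bases. Per the labels and the study's methods, the authors aligned reads with Bowtie2 and TopHat to NCBI Build 37 with an Ensembl annotation and deposited FPKM per gene. The labels call the table raw counts, but its values are not whole numbers. The program that computed FPKM and the use of strand are not given in the sources used here. Depth is unknown, and relative depths were taken from genes at low values (below 0.3 FPKM).

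Here log2(FPKM + 1) was tested with limma 3.58.1 (R 4.3.3) without a block, with Benjamini-Hochberg adjustment over 27414 genes above 0 FPKM in at least 1 library; 10565 genes are listed at 0 in all 8. A gene was called enriched with a log2 fold change beyond 2 and a q value below 0.05, the thresholds of the study. On data simulated with independent normal noise, 188 of 200 genes changed by 4 log2 units were recovered. There were 0 false calls among the rest of the 27414 genes. The changed genes were drawn from those with a mean log2(FPKM + 1) above 1. High values in single libraries and effects shared by replicate number were not simulated, so the check does not cover them. Per-library ratios were tested by exact permutation, two-sided (70 arrangements, Python 3.11.15, scipy 1.17.1). Positions and sequences came from GENCODE version M1.

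The genes and lists were chosen with earlier results of these data known. Named were all members, the other constant genes, and of each list at most the 4 genes with the highest mean FPKM, plus those needed to state small counts. Ighg, Iglv1, Iglv2, Iglv3, Tnfrsf17, Derl3, Edem1, Fcgr1, Rag1, Rag2, Vpreb2, Pax5 and the IgM share were added after seeing the data. Alternatives were another pseudocount, a filter, 3 scalings, a replicate block, an intensity trend and each library left out. Some genes of the lists are not reported here, and counts, medians and sums leave them out.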

Additional observations from a re-analysis of the deposited data

Results flagged for a closer look

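Within each group of 4 libraries, a library was marked when its gap to the nearest other library divided by the group's whole range, exceeded Dixon's 95% critical value. Of 32 groups checked, 9 were marked, and chance marks about 1 in 20 when values are normal. FPKM were used untransformed and some were at or near 0, so that rate may not hold here. The count of marks is thus a description only. In pericytes, library 4 stood apart with 1094 FPKM of Ighg1, 371.9 FPKM of Ighg3, 0.1041 FPKM of Ighe, 2062 FPKM of Iglc3 and 663.4 FPKM of Iglv3. Library 3 of the pericytes stood apart with 1421 FPKM of Iglv2. In SMCs, library 1 stood apart with 104.1 FPKM of Iglc2 and a kappa share of 60.04%, and library 3 with 0.6728 FPKM of Iglv3. These genes share libraries, so the marks are not independent of each other.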

How the results depend on the processing

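All 4 immunoglobulin genes with a row (Igkc, Ighm, Iglc2 and Igj) stayed pericyte-enriched with a pseudocount of 0.1, with a low-value filter (1 FPKM in 4 or more libraries), with median-ratio, TPM or quantile scaling, with the intensity trend, with the replicate block and with each library left out (log2 fold changes without 1 library: Igkc 5.52 to 6.15, Ighm 4.44 to 5.11, Iglc2 5.37 to 7.17, Igj 3.997 to 4.94). Same-numbered libraries deviated together with a mean correlation across genes of 0.327 (0.0794 to 0.474), 3 of 4 pairs were over 0.1 and 5 of 8 libraries correlated best with their own number, a hint from the data of something shared, but no source says that same-numbered libraries share animals or sorts, and they were not treated as pairs. With the replicate block 881 genes were pericyte-enriched and 739 SMC-enriched, against 888 and 728, the q value of Ighg2c was 0.0504 and those of Xbp1, Edem1 and Derl3 0.0895, 0.0770 and 0.0564, and the IgM share difference of −21.52 points had an exact p of 0.125, the smallest that 4 pairs allow, as did Igj per unit of Igkc, which was lower in pericytes in 4 of 4 same-numbered pairs. The IgM share difference was −8.221 points with 1 FPKM added, and −28.14 to −9.248 points without 1 library. The kappa share difference ran from −4.95 to 7.65 points without 1 library. A pseudocount of 0.1 gave 1328 pericyte-enriched and 1421 SMC-enriched genes. Ighg was called with that pseudocount (q value 0.0469), with the filter (0.0263) and without pericyte library 3 (0.0269). Derl3 (q value 0.012) and Vpreb2 (0.019) were called with that pseudocount too. Vpreb2 was also called without pericyte library 3 (0.038) or pericyte library 4 (0.042). Of genes that were not called, Mybl1 turned to −0.0005655 with quantile scaling and ran from −0.068 to 0.115 without 1 library, Creld2 turned to −0.049 with quantile and −0.212 with TPM scaling and ran from −0.151 to 0.189, and Ebf1 ran from −0.36 to 0.041. The cause was not tested. The planned IgD share could not be computed. Without read counts, values near 0 FPKM have no counting error, which limits the IgG shares in SMCs.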
